A study of Mus musculus with 6 samples.

Results

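The cytosolic ribosomal protein genes of the mouse liver are the subject here. They were the protein-coding genes whose symbol begins with Rpl or Rps and a digit, together with Rpsa, Rplp0, Rplp1 and Rplp2, without the S6 kinases and without symbols marked as pseudogenes. The rule used symbols and no measured value, and it found 86 genes among the 53715 genes of the count table. By symbol they comprised 43 large subunit genes, 31 small subunit genes, the 3 genes of the ribosomal stalk, 8 paralogs that stand beside another ribosomal protein gene, and Rps19bp1, which encodes a binding partner of RPS19 and no subunit. Fau, which encodes a further ribosomal protein fused to a ubiquitin-like protein, has no such symbol and was kept in a list of companions. Polyadenylated liver RNA of male F1 offspring aged 8 weeks, from the outbred ICR mouse strain, had been sequenced in 3 libraries of an FR F1 group and 3 libraries of a control F1 group. The labels do not spell out FR. They give the stress of FR F1 animals as paternal famine and that of control F1 animals as control, whereas the title of the series names a paternal overdiet. Library totals lay between 2468857 and 2730160 counts in the FR F1 group and between 2279755 and 2569934 counts in the control F1 group. The labels do not say which libraries came from separate fathers or litters, so the p-values below measure the spread between these libraries, part of which may be technical.

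Ribosomal proteins clothe the ribosomal RNA of the large and the small subunit, and most of them are present once in each ribosome. Their messenger RNAs usually begin with a cytosine followed by an uninterrupted run of pyrimidines, called a 5′ terminal oligopyrimidine or TOP motif. Through that motif LARP1 and the kinase complex mTORC1 control translation of these messengers when nutrients are scarce, so the amount of messenger and the rate at which it is translated can move apart. In the liver, ribosome content follows feeding and fasting. RNA counts show the messenger and not its translation. Ribosomal protein genes also have large numbers of processed pseudogenes, which are copies of the spliced messenger elsewhere in the genome.

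The start sites of 8 of the genes described below are shown because a TOP motif, where present, lies at or near the start. They were not chosen to be typical: in 6 of the 8 the run opens on the start itself. Each window runs from 20 bases before the RefSeq start to 20 bases from it on, 5′ to 3′ on the transcribed strand, from the RefSeq annotation of GRCm38.p6. Capitals mark the pyrimidine run, which was required to open with C and to hold at least 4 further pyrimidines. The run was read onward from that C only. Pyrimidines directly before that C stay in lower case, as in Rps6, Rplp2, Rps21, Rps18 and Rps27.
Rps6, chr4:86857348-86857387, minus strand: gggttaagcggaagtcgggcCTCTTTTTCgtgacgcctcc
Rplp2, chr7:141447631-141447670, plus strand: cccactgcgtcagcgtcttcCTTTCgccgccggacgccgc
Rps21, chr2:180257359-180257398, plus strand: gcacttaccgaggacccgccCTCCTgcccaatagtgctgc
Rps18, chr17:33955646-33955685, minus strand: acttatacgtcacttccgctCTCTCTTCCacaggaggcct
Rps27, chr3:90213629-90213668, minus strand: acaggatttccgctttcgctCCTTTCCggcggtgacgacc
Rps27rt, chr9:114982720-114982759, minus strand: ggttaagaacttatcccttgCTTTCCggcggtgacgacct
Rps2, chr17:24720043-24720082, plus strand: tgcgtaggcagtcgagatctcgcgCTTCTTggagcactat
Rpl39, chrX:37085203-37085242, minus strand: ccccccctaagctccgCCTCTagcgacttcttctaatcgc
In Rps6, Rplp2, Rps21, Rps18, Rps27 and Rps27rt the marked run opens on the RefSeq start. In Rps2 it opens 4 bases after that start and in Rpl39 4 bases before it. The Rps27 and Rps27rt windows share all 13 bases that follow the run in Rps27, and the coding sequences of these genes are identical over 252 bp. A RefSeq start could be matched for 66 of the 86 genes, as the one nearest to the start of the principal coding transcript in GENCODE. The distance between these starts was not limited. It was 0 bp in Rps2, 180 bp in Rpl39 and 769 bp in Rps10. The run opened exactly on the RefSeq start in 13 of the 66 genes (19.7%) and in 368 of 16503 protein-coding genes matched in the same way (2.23%). Within 5 bases of the start, on the transcribed strand, it was found in 28 of the 66 (42.4%) and in 18.8% of all matched genes. A run further from an annotated start lies outside this search.

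The summed level of the ribosomal protein genes was close in both groups and overlapped between them. It came to 8744, 8734 and 9453 CPM (counts scaled to a common library size, on totals normalised by the trimmed mean of M values, TMM) in FR F1 replicates 1, 2 and 3, against 9284, 8636 and 7694 CPM in control F1 replicates 1, 2 and 3. The group means were 8977 ± 412 CPM in FR F1 livers and 8538 ± 800 CPM in control F1 livers (SD, n = 3 each). Control replicate 3 was the lowest of the 6 libraries and control replicate 1 the second highest. The genes held 0.876%, 0.868% and 0.933% of all counts in FR F1 replicates 1, 2 and 3, and 0.900%, 0.840% and 0.781% in control F1 replicates 1, 2 and 3. The summed level of the large subunit over that of the small subunit was 1.63 ± 0.0280 in FR F1 livers and 1.66 ± 0.0673 in control F1 livers (SD, n = 3 each). These sums add counts and not molecules, since a longer messenger yields more counts. In bulk tissue, fewer cells of a type and less RNA per cell cannot be told apart.

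Of the 86 genes, 80 had enough counts to be tested and 0 of them passed an adjusted p of 0.05 in edgeR's quasi-likelihood test, which called 109 of 13022 genes or 0.837% of all genes tested. DESeq2 and limma-voom on the same libraries also called 0 of the 80. Without adjustment, 4 of the 80 had a p under 0.05 in edgeR, against 17.9% of all genes tested, and 3 had one in DESeq2 and 3 in limma-voom. The FR F1 and control F1 libraries did not overlap for 12 of the 80 genes or 15.0%, against 25.7% of all genes tested. FR F1 livers were the higher group in 10 of these, a share of 12.5% among the 80 and of 12.5% among all genes tested. Log2 fold changes of FR F1 over control F1 were positive for 57 genes and negative for 23, with a median of 0.09, while 50% of all genes tested were positive and their median was 0.00. The excess of positive values varied with the libraries: without control replicate 3, 44 genes were positive and 36 negative, with a median of 0.01, and without FR F1 replicate 3, 52 were positive and 29 negative, with a median of 0.04. Without control replicate 1 the median was 0.14. The absolute log2 fold change was below that of a 1.5-fold difference for 77 of the 80 genes. The 95% interval lay wholly within a 2-fold difference in either direction for 74 genes and within a 1.5-fold difference for 61, so larger differences than these fall outside the intervals of those genes.

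**Figure D1:**
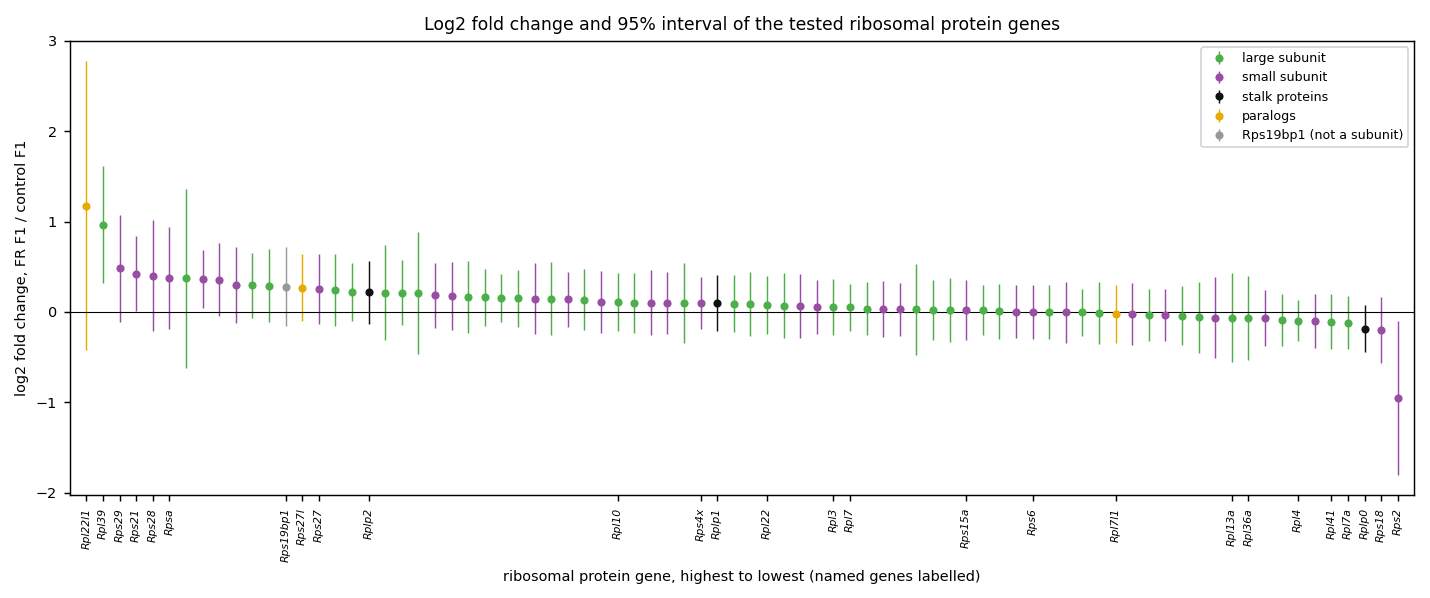
Log2 fold change of FR F1 over control F1 (vertical axis) of the 80 tested ribosomal protein genes, ordered from highest to lowest and labelled where they belong to the named genes, with points for the estimate of the edgeR fit, bars for its 95% interval and colours for the class of the gene. Most points lie close to 0; Rpl22l1 and Rpl39 stand at the upper end and Rps2 at the lower end, at -0.95, and none passed the adjusted test.

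Among the large subunit genes, 42 of 43 were tested, 30 log2 fold changes were positive and 12 negative, and the median was 0.07. Rpl39, on the X chromosome, encodes a small protein of the tunnel through which the new peptide leaves the ribosome. Its level was 52.3, 56.0 and 54.2 CPM in FR F1 replicates 1, 2 and 3, against 38.2, 28.8 and 16.5 CPM in control F1 replicates 1, 2 and 3. All FR F1 libraries lay above all control F1 libraries, and the control libraries spread widely while the FR F1 libraries agreed within a few CPM. The log2 fold change was 0.97 ± 0.28 (SE, n = 3 each), with an unadjusted p of 0.00873 and an adjusted p of 0.154 in edgeR. The value was 0.69 without control replicate 3, and the adjusted p was 0.0385 without control replicate 1, the only left-out library under which any ribosomal protein gene was called.

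At the other end of the large subunit stood Rpl7a and Rpl41, which encodes a very short peptide at the interface of the subunits. Rpl7a had 202, 172 and 224 CPM in FR F1 livers and 209, 223 and 217 CPM in control F1 livers, a log2 fold change of -0.12 ± 0.13. Rpl41 had 85.3, 87.3 and 94.4 CPM in FR F1 livers and 101, 91.5 and 95.5 CPM in control F1 livers, a log2 fold change of -0.11 ± 0.13. For both genes the groups overlapped and the difference was no larger than its standard error. Per kilobase of the longest transcript, Rpl4 and Rpl10 had most counts of all ribosomal protein genes, at 534 and 503 mean counts per kilobase, and Rpl13a was among the 3 with fewest, at 51.7. Rpl4, part of which reaches into the exit tunnel, had a log2 fold change of -0.10 ± 0.10, with 309, 333 and 316 CPM in FR F1 livers against 352, 354 and 318 CPM in control F1 livers. Rpl10, which joins the large subunit late in its assembly, had 187, 181 and 217 CPM in FR F1 livers against 203, 183 and 157 CPM in control F1 livers, and a log2 fold change of 0.11 ± 0.14. Rpl13a had 20.6, 23.2 and 20.1 CPM in FR F1 livers against 22.1, 25.2 and 19.6 CPM in control F1 livers, and a log2 fold change of -0.06 ± 0.21. None of these 3 genes separated the groups.

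Separation without a call was also seen for Rpl36, Rpl27a, Rpl9 and Rpl19, where every FR F1 library lay above every control F1 library. Rpl36 had 76.7, 70.4 and 79.2 CPM in FR F1 livers against 69.8, 60.4 and 54.5 CPM in control F1 livers, with a log2 fold change of 0.29 ± 0.16 and an adjusted p of 0.353. The distance between the nearest libraries of the groups was under 1 CPM for Rpl36. The log2 fold changes of Rpl27a, Rpl9 and Rpl19 were 0.22, 0.16 and 0.16. These 4 genes were picked out after their values were seen, as the rest of the genes whose groups did not overlap.

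All 31 small subunit genes were tested, with 22 positive and 9 negative log2 fold changes and a median of 0.10. Rps2, whose product lies near the entrance of the messenger channel, had the lowest value of all 80 genes. It reached 48.6, 40.2 and 45.1 CPM in FR F1 replicates 1, 2 and 3, against 144, 65.8 and 49.1 CPM in control F1 replicates 1, 2 and 3. Control replicate 1 was far above the rest, while control replicate 3 was within 1 CPM of FR F1 replicate 1. The log2 fold change was -0.95 ± 0.37 (SE, n = 3 each), with an adjusted p of 0.241, and it was -0.36 without control replicate 1. Counts of Rps2 were 130, 109 and 110 in FR F1 livers and 332, 146 and 128 in control F1 livers, and annotated copies of the gene held further counts, as given with the copies. Rps18, a protein of the head of the small subunit, was the other gene with every FR F1 library below every control F1 library. It had 40.0, 36.1 and 39.4 CPM in FR F1 livers against 41.6, 45.5 and 45.6 CPM in control F1 livers, and a log2 fold change of -0.20 ± 0.16 with an adjusted p of 0.514.

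The highest log2 fold changes of the small subunit belonged to Rps29, Rps21 and Rps28, all short proteins. Rps29 had 44.1, 42.4 and 41.9 CPM in FR F1 livers against 43.8, 25.2 and 23.0 CPM in control F1 livers, a log2 fold change of 0.48 ± 0.26. Rps21 had 42.3, 47.9 and 53.3 CPM in FR F1 livers against 39.0, 30.6 and 37.2 CPM in control F1 livers, a log2 fold change of 0.42 ± 0.18. Rps28 had 41.1, 33.5 and 44.3 CPM in FR F1 livers against 42.1, 26.1 and 21.9 CPM in control F1 livers, a log2 fold change of 0.40 ± 0.27. Control replicate 1 was level with the FR F1 libraries in Rps29 and Rps28, and of these 3 genes only Rps21 had groups that did not overlap. The adjusted p of Rps29, Rps21 and Rps28 was 0.358, 0.272 and 0.446.

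Rps6, the subunit that S6 kinase phosphorylates downstream of mTORC1, had 158, 157 and 183 CPM in FR F1 livers and 183, 160 and 155 CPM in control F1 livers. Its means were 166 ± 14.8 CPM in FR F1 livers and 166 ± 15.3 CPM in control F1 livers (SD, n = 3 each), and the 95% interval of the log2 fold change ran from -0.30 to 0.30. Rps4x, an X-linked gene and the small subunit gene with most counts per kilobase at 498, had 202, 198 and 204 CPM in FR F1 livers against 210, 192 and 164 CPM in control F1 livers. The log2 fold change of Rps4x was 0.10 ± 0.13. Rps15a had the fewest counts per kilobase of longest transcript, 32.5, and a log2 fold change of 0.02 ± 0.15, with 72.9, 60.4 and 70.6 CPM in FR F1 livers against 67.2, 66.7 and 67.1 CPM in control F1 livers. In these 3 genes the groups overlapped. Rpsa, which encodes a small subunit protein also known as the laminin receptor, had 256, 252 and 275 CPM in FR F1 livers against 262, 219 and 122 CPM in control F1 livers. The FR F1 libraries of Rpsa were close together and control replicate 3 lay far below every other library. The log2 fold change was 0.38 ± 0.25 with an adjusted p of 0.435, and 0.12 without control replicate 3.

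The stalk is the flexible arm of the large subunit that recruits elongation factors, with Rplp0 as its base and Rplp1 and Rplp2 as its arms. Rplp0 had 216, 226 and 262 CPM in FR F1 livers against 267, 275 and 257 CPM in control F1 livers, with a log2 fold change of -0.18 ± 0.11 and an adjusted p of 0.417. Rplp1 had 100, 95.1 and 111 CPM in FR F1 livers against 100, 96.0 and 90.5 CPM in control F1 livers, with a log2 fold change of 0.09 ± 0.13. Rplp2 had 77.4, 74.1 and 81.7 CPM in FR F1 livers against 72.4, 70.3 and 57.9 CPM in control F1 livers, with a log2 fold change of 0.22 ± 0.15 and an adjusted p of 0.466. The groups overlapped in Rplp0 and Rplp1 and did not overlap in Rplp2, whose nearest libraries were FR F1 replicate 2 and control replicate 1.

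**Figure D2:**
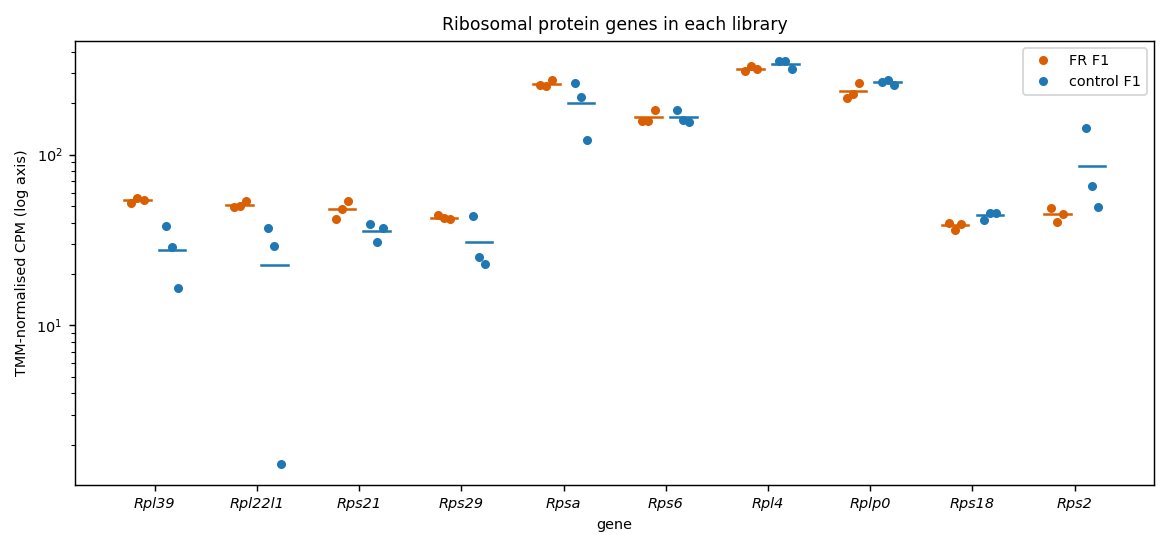
TMM-normalised CPM on a log axis (vertical) of 10 ribosomal protein genes in the 3 FR F1 livers (orange, left of each pair) and the 3 control F1 livers (blue, right); horizontal bars are group means. The groups overlap in Rps6, from 157 to 183 CPM in FR F1 livers and 155 to 183 CPM in control F1 livers, while Rpl22l1 was at 1.53 CPM in control replicate 3 and Rps2 at 144 CPM in control replicate 1.

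Of the 8 paralogs, 3 were tested and 5 had too few counts. Rpl22l1, the paralog of Rpl22, had the highest log2 fold change of all ribosomal protein genes, and the size of that value depended on 1 library. It was counted 132, 135 and 130 times in FR F1 replicates 1, 2 and 3, against 86, 65 and 4 times in control F1 replicates 1, 2 and 3. Every FR F1 library of Rpl22l1 lay above every control F1 library. The FR F1 libraries were nearly equal, and control replicate 3 was far below every other library. The log2 fold change was 1.18 ± 0.69 with an adjusted p of 0.397, and 0.60 without control replicate 3, where the adjusted p was 0.183. Rpl22 itself had 120, 119 and 110 CPM in FR F1 livers against 121, 96.9 and 113 CPM in control F1 livers, with a log2 fold change of 0.07 ± 0.14, so control replicate 3 was not low for the partner. Rps27l, known as a p53 target, had 75.9, 70.8 and 84.9 CPM in FR F1 livers against 73.7, 60.8 and 57.9 CPM in control F1 livers, a log2 fold change of 0.27 ± 0.16. Its partner Rps27 had 52.7, 54.5 and 62.0 CPM in FR F1 livers against 53.8, 41.5 and 46.8 CPM in control F1 livers, a log2 fold change of 0.25 ± 0.17. The groups overlapped in both. Rpl7l1, whose yeast homologue is a ribosome assembly factor, had a log2 fold change of -0.02 ± 0.14, and its partner Rpl7 one of 0.05 ± 0.11.

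The 5 untested paralogs had few or no counts. Rpl3l, expressed mainly in heart and skeletal muscle, was counted 1, 1 and 1 times in FR F1 livers and 2, 1 and 5 times in control F1 livers, beside a log2 fold change of 0.05 ± 0.13 for its partner Rpl3. Rpl10l and Rpl39l, both known from the testis, were counted 0 times in 5 of 6 libraries each, with 1 count in control replicate 3 for Rpl10l and 1 count in FR F1 replicate 1 for Rpl39l. A count of 0 allows up to 3 counts, and 0 is therefore not absence. Rpl36al was counted 1, 11 and 6 times in FR F1 livers and 10, 8 and 4 times in control F1 livers, and its partner Rpl36a had a log2 fold change of -0.07 ± 0.20. Rps27rt was counted 6, 3 and 1 times in FR F1 livers and 1, 10 and 5 times in control F1 livers. Since Rps27rt has the coding sequence of Rps27, reads inside it fit both genes, and the sources used here do not give the rule by which such reads were counted. Rps19bp1, known as a partner of SIRT1 as well as of RPS19, had 34.0, 35.4 and 38.6 CPM in FR F1 livers against 32.5, 32.0 and 24.5 CPM in control F1 livers. Its groups did not overlap, and its log2 fold change was 0.28 ± 0.19 with an adjusted p of 0.455.

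Some libraries departed more than 2-fold from the others in single ribosomal protein genes. Rpl26 in FR F1 replicate 1 and Rps2 in control replicate 1 were more than 2-fold above the median of the other 5 libraries. Rpl22l1, Rpl30, Rpl39 and Rpsa were more than 2-fold below it, all in control replicate 3. Rpl26, a large subunit protein known to bind the p53 messenger, had 73.3, 21.7 and 26.7 CPM in FR F1 livers against 31.7, 34.3 and 28.4 CPM in control F1 livers. Rpl30 had 77.4, 77.8 and 55.4 CPM in FR F1 livers against 78.9, 68.1 and 35.7 CPM in control F1 livers. Both genes were named after their values were seen, and their adjusted p was 0.659 for Rpl26 and 0.717 for Rpl30. In the companion lists, control replicate 3 was likewise low for several genes. Eif3e, an initiation factor subunit, had 290, 384 and 272 counts in FR F1 livers against 317, 277 and 72 counts in control F1 livers. Larp4 had 320, 390 and 287 counts in FR F1 livers against 342, 190 and 73 counts in control F1 livers. Control replicate 3 was also the lowest library for Npm1, Tpt1, Nap1l1 and Eif5, and the highest for Mtor. Apart from Mtor, these companion genes were picked after their values were seen. The departures of control replicate 3 were thus not limited to ribosomal protein genes. The median deviation of the 80 genes from the mean of the 6 libraries was 0.01, 0.00 and 0.13 log2 units in FR F1 replicates 1, 2 and 3, and 0.07, -0.02 and -0.17 in control F1 replicates 1, 2 and 3.

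Summed markers of the sinusoidal endothelium and of stellate cells and fibroblasts were higher in every FR F1 library than in every control F1 library. Summed over 9 markers of the sinusoidal endothelium, the level was 738, 701 and 842 CPM in FR F1 livers against 490, 416 and 631 CPM in control F1 livers. Over 9 markers of stellate cells and fibroblasts it was 719, 855 and 715 CPM in FR F1 livers against 425, 333 and 547 CPM in control F1 livers. All 18 of these markers had positive log2 fold changes, and 1 of them, Pdgfra, a stellate cell and fibroblast marker, passed the adjusted test. The 8 Kupffer cell and macrophage markers summed to 326 to 635 CPM in FR F1 livers and 259 to 478 CPM in control F1 livers, the 8 B and plasma cell markers to 183 to 340 CPM in FR F1 livers and 67.6 to 208 CPM in control F1 livers, and the 6 erythroid markers to 409 to 469 CPM in FR F1 livers and 179 to 407 CPM in control F1 livers. The groups overlapped in the Kupffer cell and B cell sums, although all 8 Kupffer cell and all 5 tested B cell markers had positive log2 fold changes. In the erythroid sum the groups did not overlap, with 409 CPM in FR F1 replicate 1 and 407 CPM in control replicate 1. Among the 4 erythroid markers tested, 3 had positive log2 fold changes and 1, Hbb-bt, a negative one of -1.44. The endothelial marker Lyve1 was at 0 counts in control replicate 2. Of the 10 hepatocyte markers 9 were found, and they summed to 5714, 5748 and 6153 CPM in FR F1 livers against 6697, 6695 and 5386 CPM in control F1 livers. Hepatocyte messengers were thus abundant in all libraries, with Alb, the plasma albumin gene, counted 1865 to 1944 times in FR F1 livers and 2075 to 2315 times in control F1 livers. The part of these cell types in the levels of the ribosomal protein genes was not tested.

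Annotated near-identical copies took a share of the ribosomal protein counts that differed from gene to gene. A copy was counted as near-identical where a transcript of another gene matched at least 80% of the coding sequence at 90% identity or more. By that definition 78 of the 86 genes had 938 copies, of which 435 had a count in some library. Copies held 7.30%, 7.59% and 6.86% of the counts of ribosomal protein genes and copies together in FR F1 replicates 1, 2 and 3, and 6.20%, 10.3% and 9.75% in control F1 replicates 1, 2 and 3. Control replicates 2 and 3 had the highest shares. The median share over the tested genes was 3.12%, and it was at least 20% for 7 genes: Rpl24, Rpl26, Rps2, Rps18, Rpl34, Rpl29 and Rps7. For Rpl26 the copies held 67.6% of the counts, for Rps2 65.0% and for Rps18 59.8%. Reads that match a gene and its copy equally well can be assigned to either by an aligner, so for these genes the split between gene and copy is uncertain.

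Larger contrasts between the groups stood among the copies than among the ribosomal protein genes. Gm9625, a copy of Rplp0 on chromosome 13 (mm10, chr13:67810246-67811200) with 97.4% identity, was counted 63, 54 and 54 times in FR F1 livers and 0, 1 and 1 times in control F1 livers. Every FR F1 library was far above every control F1 library, at 171 counts in all against 2. The ratio of the summed counts, scaled for library size, was 77.9 with a 95% interval of 21.2 to 649 that covers counting error only, and the adjusted p in edgeR was 0.0045. Gm17971, a copy of Rps2 on chromosome 1 (mm10, chr1:55066264-55067069) with 90.4% identity, was counted 2, 3 and 1 times in FR F1 livers and 21, 22 and 50 times in control F1 livers, and its adjusted p was 0.0282. Here every FR F1 library was below every control F1 library. These were the 2 copies called among 29 copies with enough counts to be tested, 1 higher and 1 lower.

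Some other copies, picked after their values were seen, ran against their parent gene without passing the adjusted test. Gm17971, by contrast, was lower in FR F1 livers, as was its parent Rps2. Over the 29 tested copies, 14 log2 fold changes were positive and 15 negative, with a median of -0.02. Gm8730, another copy of Rplp0 with 98.7% identity, was counted 169, 175 and 161 times in FR F1 livers and 91, 70 and 52 times in control F1 livers, with an adjusted p of 0.0910. Rps2-ps13 was counted 168, 277 and 238 times in FR F1 livers and 144, 91 and 96 times in control F1 livers, while Rps2 itself was lower in FR F1 livers. Rpsa-ps10, 99.3% identical to Rpsa, was counted 7, 9 and 8 times in FR F1 livers and 10, 349 and 425 times in control F1 livers. Control replicates 2 and 3 stood apart from the other 4 libraries in Rpsa-ps10, and they were the lowest of the 6 libraries in Rpsa. Gm15772, which had more counts than its parent Rpl26, was counted 165, 202 and 192 times in FR F1 livers and 166, 159 and 195 times in control F1 livers, and its groups overlapped. Of the 297 genes named by symbol as ribosomal protein pseudogenes, 14 were tested, 0 passed, 6 had positive and 8 negative log2 fold changes, and the median was -0.38. Rpl9-ps6 had the smallest p of these, with 4, 5 and 3 counts in FR F1 livers and 14, 22 and 18 counts in control F1 livers and an adjusted p of 0.0576.

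When the counts of the copies were added to their parent gene, an alternative chosen after seeing the data, 0 of 81 genes passed the adjusted test and the median log2 fold change was 0.08. Rps2 with its copies had 187, 165 and 168 CPM in FR F1 livers against 247, 171 and 163 CPM in control F1 livers, and its log2 fold change was -0.16 with copies and -0.95 without. Rpsa with its copies had 260, 256 and 279 CPM in FR F1 livers against 267, 380 and 289 CPM in control F1 livers, and its log2 fold change turned to -0.23, from a positive value alone. Rplp0 turned to 0.11 and Rps18 to 0.10, each from a negative value alone. Rpl26 with copies had a log2 fold change of 0.10. The spread between libraries also narrowed: the median over genes of chi-square per degree of freedom, which is near 1 when libraries differ by counting error alone, was 2.14 with copies and 2.51 without.

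**Figure D3:**
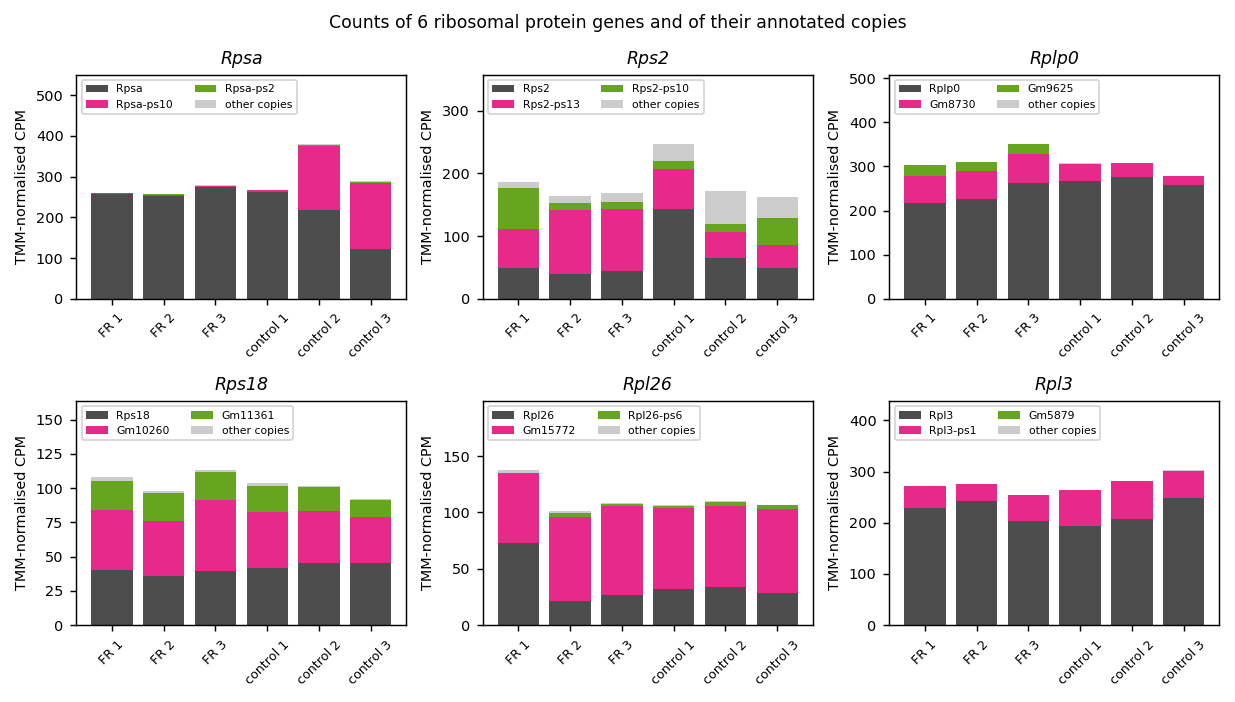
Stacked TMM-normalised CPM (vertical axis) of 6 ribosomal protein genes (dark grey), their 2 most counted annotated copies (pink and green) and all other copies (light grey) in each of the 3 FR F1 and 3 control F1 livers. For Rps2 and Rpl26 the stacks differ less between libraries than the dark bars, and Rpsa-ps10 appears as a pink block in control replicates 2 and 3.

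Rpl24 was the 1 large subunit gene that could not be tested. It was counted 2, 4 and 2 times in FR F1 livers and 3, 0 and 1 times in control F1 livers, although its product is a standard component of the large subunit. In the GENCODE M21 annotation, 484 of the 1030 exonic base pairs of Rpl24 are shared with Gm28037 on the same strand, and reads in such a stretch fit both genes. Rpl13a shares 621 of 2114 exonic base pairs with Gm45713 on the same strand and had few counts per kilobase. Rpl36al shares 332 of 1353 base pairs with Gm49383 on the same strand. Whether these same-strand overlaps lowered the counts of Rpl24, Rpl13a and Rpl36al was not tested. Genes on the opposite strand overlap Rpl35 (Wdr38, 821 base pairs), Rpl5 (Fam69a, 953), Rpl30 (D730044K07Rik, 616), Rpl23a (Tlcd1, 506), Rps25 (Trappc4, 462) and Rpl31 (Tbc1d8, 420). The sources used here do not give the strand setting of the counting, so the values of these genes may include or lose reads of the partner.

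Counts of ribosomal protein genes went with transcript length. Over the 80 tested genes the log2 mean count and the log2 length of the principal coding transcript had a Pearson r of 0.56 and a Spearman rho of 0.63 (n = 80 genes in the same 6 libraries, which are not independent replicates), against a Pearson r of 0.03 over 11519 tested protein-coding genes. Mean counts per base pair of that transcript lay between 0.0517 and 0.603 with a median of 0.358, against a median of 0.0426 over the 11519 genes, and 63 of the 80 genes were above the 90th percentile of all, 0.236. Among hepatocyte markers, Alb had 0.998 counts per base pair and Apoa1, the main HDL apolipoprotein gene, had 0.866, both above the highest ribosomal protein gene. Over the 11519 genes the 99th percentile was 0.663 and the highest value 1.87. An upper bound on counts per base pair would understate fold changes of abundant genes. Whether these counts have such a bound was not tested. Leaving out every gene that reached 0.5 counts per base pair of its longest transcript removed 8 ribosomal protein genes and left a median of 0.08 over 72.

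Log2 fold changes of ribosomal protein genes differed with the length of the messenger. The 30 ribosomal protein genes with a principal coding transcript of up to 600 bp had a median of 0.16, with 25 positive, and the 50 longer ones a median of 0.03, with 32 positive. Over all 80 genes the log2 fold change and the log2 length had a Pearson r of -0.25 and a Spearman rho of -0.32 (n = 80 genes in the same libraries), although the 2 genes of over 2000 and up to 4000 bp had a median of 0.22. Other tested protein-coding genes had a median of 0.15 up to 600 bp (161 genes), 0.04 above that and up to 1000 bp, -0.03 from there up to 2000 bp, -0.03 from there up to 4000 bp and 0.08 over 4000 bp, and a Pearson r of 0.05 over 11439 genes. In FR F1 replicates 1, 2 and 3 the 30 short ribosomal protein genes deviated by a median of 0.04, 0.01 and 0.19 log2 units from their mean over all libraries, and in control F1 replicates 1, 2 and 3 by 0.09, -0.05 and -0.22. The 161 other short genes deviated by 0.04, 0.04 and 0.18 in FR F1 replicates and by 0.06, -0.07 and -0.11 in control F1 replicates. FR F1 replicate 3 was the highest and control replicate 3 the lowest in both sets.

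**Figure D4:**
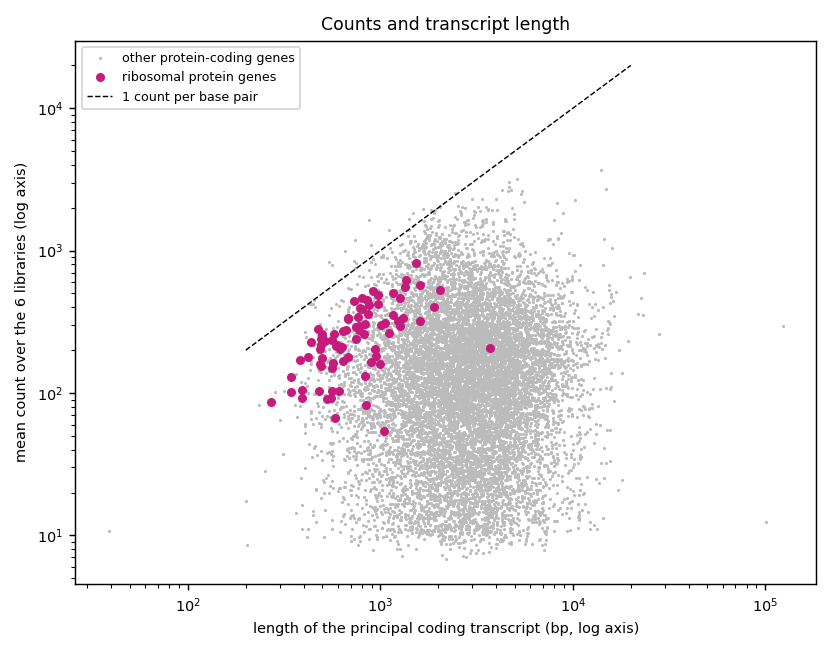
Mean count of 6 libraries (vertical) and length of the principal coding transcript in base pairs (horizontal), both on log axes, for the 80 tested ribosomal protein genes (pink) and other tested protein-coding genes (grey); the dashed line marks 1 count per base pair. The ribosomal protein genes lie between 0.0517 and 0.603 counts per base pair, 63 of the 80 of them above the 90th percentile of all tested protein-coding genes, 0.236.

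The companion genes of translation were read from the same fit, and 0 of 24 other TOP messengers and elongation factors passed the adjusted test, with 12 positive and 12 negative log2 fold changes and a median of -0.01. Eef2, the translocation factor, had the smallest p of that list and was counted 1788, 1903 and 1761 times in FR F1 livers and 1851, 1727 and 2089 times in control F1 livers, a log2 fold change of -0.19 ± 0.08. Eif3l, an initiation factor subunit, had a log2 fold change of -0.27 ± 0.13. Fau, the fusion gene that supplies a small subunit protein, had a log2 fold change of 0.01. Among 29 initiation factors 0 passed, with a median of -0.07. Eif2b1, part of the exchange factor that reloads eIF2 with GTP, had the smallest p, with a log2 fold change of -0.63 ± 0.17 and an adjusted p of 0.134. Eif5b, which joins the subunits, had a log2 fold change of 0.53 ± 0.15 and an adjusted p of 0.153.

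The genes that build ribosomes had lower values than the genes that encode their proteins, with 0 of 49 ribosome assembly genes passing the adjusted test. Their log2 fold changes were negative for 40 and positive for 9, with a median of -0.24 beside 0.00 for all genes tested. Without adjustment, 14 of the 49 had a p under 0.05, against 17.9% of all genes tested, 12 of them lower and 2 higher in FR F1 livers. The groups did not overlap in 22 of the 49, against 25.7% of all genes tested, and FR F1 livers were lower in 19 of these, beside 1722 of the 13022 genes tested. Nop56, a core protein of the particles that methylate ribosomal RNA, was counted 136, 135 and 133 times in FR F1 livers and 165, 185 and 216 times in control F1 livers. All FR F1 libraries were below all control libraries of Nop56, with a log2 fold change of -0.62 ± 0.15 and an adjusted p of 0.106. Rrp9, a U3 particle protein, was counted 76, 56 and 82 times in FR F1 livers and 111, 89 and 145 times in control F1 livers, with a log2 fold change of -0.80 ± 0.23 and an adjusted p of 0.153. The difference between the assembly genes and the ribosomal protein genes was not tested.

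Of 16 genes of RNA polymerase I, which transcribes ribosomal RNA, and its factors, 0 passed, with a median of -0.11. Taf1a, a subunit of the promoter selectivity factor, had a log2 fold change of -0.56 ± 0.19 and Ubtf, the upstream binding factor, one of -0.29 ± 0.13. Of 30 genes of mTORC1, its inputs and LARP1, 27 were tested, 0 passed, and the median was 0.02. Mtor, the kinase itself, was counted 240, 233 and 172 times in FR F1 livers and 243, 285 and 393 times in control F1 livers, with a log2 fold change of -0.64 ± 0.18 and an adjusted p of 0.139. Maf1, the repressor of RNA polymerase III that mTORC1 restrains, was counted 232, 219 and 220 times in FR F1 livers and 148, 138 and 171 times in control F1 livers, with a log2 fold change of 0.42 ± 0.14 and an adjusted p of 0.182. Larp1 had a log2 fold change of 0.16 and an unadjusted p of 0.170. Of 78 mitochondrial ribosomal protein genes, 77 were tested, 0 passed, and the median was -0.03, with 32 positive and 45 negative. Mrps24 had the smallest p of them, at a log2 fold change of 0.74 ± 0.18 and an adjusted p of 0.107, and Mrps15 had 0.51 ± 0.18.

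**Figure D5:**
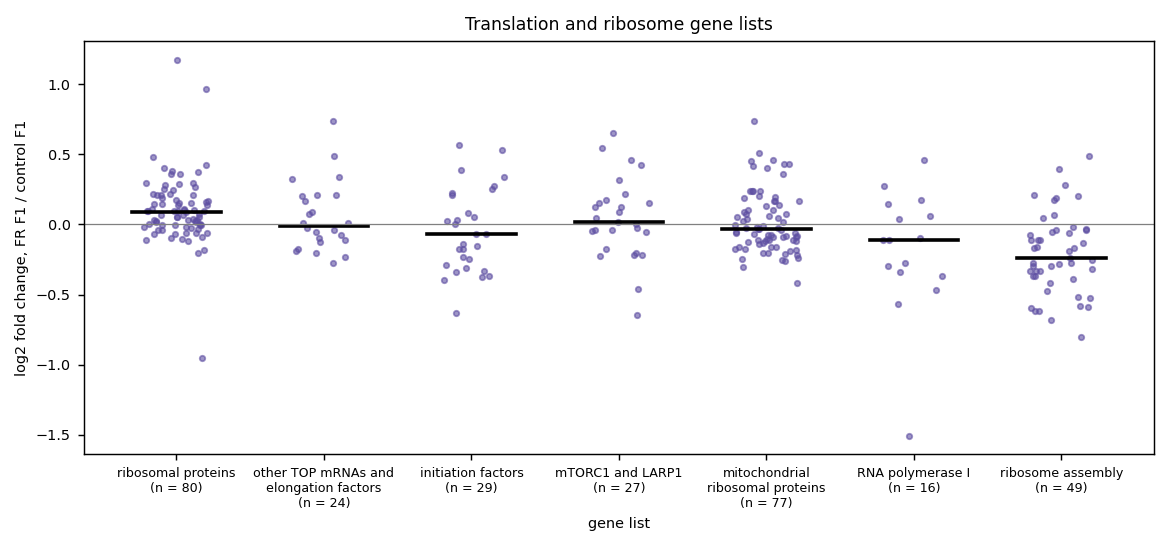
Log2 fold change of FR F1 over control F1 (vertical axis) of each tested gene in the ribosomal protein list and 6 companion lists, with black bars at the medians and n the number of tested genes. The ribosomal protein median was 0.09 and the ribosome assembly median -0.24; none of the plotted genes passed the adjusted test.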

How the data were processed

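The authors deposited 1 table of whole-number read counts per gene for 6 liver RNA-seq libraries, and its columns were matched to samples through the code in each sample's description. Per the submitters' processing notes, the tools were STAR, HTSeq, StringTie and DESeq2 and the build mm10, without versions. The sources used here do not give the strand setting, any duplicate removal or the handling of reads that fit several genes. Per the labels' protocols, the library kit was a TruSeq kit for DNA. Symbols came from GENCODE M21 for 53620 of 53715 genes.

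Counts were tested in edgeR 4.0.16 (R 4.3.3) on TMM-scaled libraries after filterByExpr (minimum count 10, minimum total 15), which left 13022 genes, with two-sided quasi-likelihood tests of FR F1 over control F1 and Benjamini-Hochberg adjusted p over all genes tested. The standard error is the absolute log2 fold change divided by the square root of F. DESeq2 1.42.0 and limma 3.58.1 (voom) were alternatives, beside other scalings and filters, leaving out each library, a block for the replicate number, and settings for a ceiling of counts per base pair. Near-identical copies were found with BLAST 2.17.0 against GENCODE transcripts, with at least 50% of the copy's longest transcript matched, and each was assigned to its best parent. The test was checked on simulated data with known changes. There it called 48 of 97 genes with a true 2-fold change, 92 of 98 with a 4-fold change and 12 of 12606 without a change.

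The text names the tested ribosomal protein genes with the 5 highest and the 5 lowest log2 fold changes, the 3 with most and 3 with fewest counts per kilobase, Rpsa and the stalk genes, paralogs with their partners, Rps6 and Rps19bp1, and in each companion list the called genes or the 2 of smallest p; for cell type marker lists the text gives sums and called genes. Ribosomal protein genes with an adjusted p under 0.05 would also have been named. Single values of some genes are not reported here. The genes and lists were chosen with earlier results of these data known. Libraries with the same replicate number did not deviate together (r of -0.01, 0.10 and 0.14), so the numbers were not used as pairs.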

Additional observations from a re-analysis of the deposited data

How the results depend on the processing

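The count of ribosomal protein genes called stayed at 0 under every alternative run except 2: it was 3 with no filter on low counts (Rpl39, Rps2 and Rpl22l1) and 1 without control replicate 1 (Rpl39), a range of 0 to 1 over the left-out libraries. The count over all genes moved more, to 457 in DESeq2, 1251 with no filter and 21 with a replicate block, and between 7 and 651 with 1 library left out. The replicate block called 0 ribosomal protein genes and gave a median of 0.09. The median log2 fold change kept its sign throughout, between 0.01 and 0.14, with the lowest value without control replicate 3. The log2 ratio of summed CPM was 0.07, and -0.00068 without control replicate 3. Of single genes, Rps6, close to 0, changed sign to 0.0082 in DESeq2, 0.0081 with DESeq2 size factors, 0.0070 with upper quartile scaling, 0.013 with library totals, 0.0073 with a mean CPM of at least 1 and 0.026 with counts expanded toward a ceiling, and ran from -0.066 to 0.076 with 1 library left out. Other genes that changed sign with a library left out ranged from -0.024 to 0.16 (Rpl3), -0.24 to 0.12 (Rpl36a), -0.15 to 0.029 (Rpl13a), -0.12 to 0.046 (Rpl7l1), -0.014 to 0.14 (Rpl22), -0.019 to 0.086 (Rpl7) and -0.022 to 0.098 (Rps15a). With copies added, chosen after seeing the data, Rps18 became 0.10, Rplp0 0.11, Rpsa -0.23 and Rpl3 -0.079. The cause of these moves was not tested, other than that copies by construction add counts. The 6 tested genes with no near-identical copy had a median of 0.09. The data held 3 libraries a group and a median of 247 counts per tested ribosomal protein gene. The 95% interval reached beyond a 1.5-fold difference for all but 61 of the 80 tested genes. Differences over 1.5-fold thus lay within the intervals of the remaining genes.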
